A study of Mus musculus with 6 samples.

Results

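The transcripts of 10 genes of vascular endothelial cells, *Cdh5*, *Pecam1*, *Emcn*, *Kdr*, *Flt1*, *Tek*, *Tie1*, *Eng*, *Sox17* and *Sox18*, were followed in whole male gonads of the mouse embryo at E14.5. None of the 10 changed by the test used here in any of the 3 genotype comparisons, and *Pecam1* came nearest, with a mean signal 1.58-fold higher in *Nanos2-/-* than in *Nanos2+/-*. The genes were chosen by name, and every probe whose accession belonged to one of them was taken. All 10 genes had a probe, 14 probes in all of 41174 on the array besides controls, and 13 of these were among the 26698 probes tested. Those 26698 probes stood for 12978 named genes.

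The genotypes compared numbered 3, with 2 arrays each, all on a mixed ICR and N2 background. *Nanos2+/-* carried 1 disrupted *Nanos2* allele and was the control. *Nanos2-/-* lacked a working allele. *Nanos2-/-_Tg+* was the same null with a transgene for 3×FLAG-tagged NANOS2-ΔN10, a NANOS2 protein without its first 10 residues, under upstream sequence of *Nanos2* itself. *Nanos2* encodes an RNA-binding protein made in male germ cells, so neither the null nor the transgene is aimed at endothelial cells, and the study carried its transgenic work forward with 1 of its lines. Total RNA of the dissected gonad was measured, so vessels, germ cells and all somatic cells contribute to each value.

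Endothelial cells line every blood vessel. VEGF acts on them through the receptor tyrosine kinases KDR and FLT1, and the angiopoietins through TEK, which pairs with the related receptor TIE1. CDH5 and PECAM1 sit at the junctions between the cells, endoglin is a co-receptor for BMP and TGF-β ligands, and SOX17 and SOX18 are transcription factors of the vessel wall. In the mouse, the fetal testis becomes vascularized as its cords form, when endothelial cells enter from the neighbouring mesonephros.

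The probe of *Nanos2* checked the genotypes. Its log2 signal was 9.42 and 10.78 in *Nanos2+/-* and 13.28 and 14.25 in *Nanos2-/-_Tg+*, while neither *Nanos2-/-* array had it well above background. No spot was saturated, and between 64.1 and 66.7% of probes were well above background on each array. The *Nanos2+/-* arrays were on a slide of their own and the *Nanos2-/-* and *Nanos2-/-_Tg+* arrays shared a second, so genotype and slide cannot be told apart in any comparison with *Nanos2+/-*, while *Nanos2-/-_Tg+* and *Nanos2-/-* were compared within 1 slide. Over all tested probes the replicates differed by a median of 0.33 on the log2 scale in *Nanos2+/-*, 0.20 in *Nanos2-/-* and 0.18 in *Nanos2-/-_Tg+*. The *p*-values measure the spread between these arrays, since the labels do not name the embryos behind them. With 2 arrays against 2, the smallest *p* that a two-sided exact permutation test of 1 gene allows is 0.333.

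All values below are log2 of the processed signal after each array was scaled to a common median. A signal is specific to its probe, so levels are compared between arrays and not between genes. A probe was called changed at a Benjamini-Hochberg adjusted *p* below 0.05 in limma with a difference of at least 2-fold.

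Promoter sequences from RefSeq (GRCm38.p6, 300 bases around each start) were at hand for 6 of the genes, *Eng*, *Emcn*, *Tek*, *Tie1*, *Kdr* and *Flt1*. ETS-family factors are known regulators of endothelial genes, and the stretches holding ETS letters are shown here to place the genes in the genome. The letters GGAAGT, on either strand, occurred in 4 of the 6 promoters and in 23.8% of the 32851 promoters in the table. The stretches read as follows, 5′ to 3′ on the strand of the gene, with the motif letters in capitals.
Eng, chr2:32646530-32646559, + strand: aaagcctgtggcACTTCCtctactcgcctg
Tie1, chr4:118489914-118489943, - strand: ccccttccagagACTTCCaggccacaccca
Kdr, chr5:75978655-75978684, - strand: tggctacattttACTTCCaccagaaaccga
Flt1, chr5:147726046-147726075, - strand: ggtgccggggtaGGAAGTgggctggggaaa
The first capital lay 53 bases before the annotated start in *Eng*, 82 in *Tie1*, 217 in *Kdr* and 52 in *Flt1*. *Kdr* also held the second ETS form searched, CCGGAA, whose share was 14.9% of all promoters. The forms have GGAA in common and can overlap, but in *Kdr* they lay apart.
Kdr, chr5:75978591-75978620, - strand: cgcccggcacagTTCCGGggtagtggggga
The SOX letters ACAATG were in 0 of the 6 promoters and in 12.6% of all. The GATA letters AGATAA were in 1 of the 6, that of *Tek*, and in 11.2% of all. The matches describe these windows only.

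*Cdh5* encodes VE-cadherin, the adhesion molecule of the endothelial junction. Its signal was 11.42 and 11.54 in *Nanos2+/-*, 11.30 and 11.25 in *Nanos2-/-*, and 11.39 and 11.72 in *Nanos2-/-_Tg+*. Both *Nanos2-/-* arrays lay under the other 4, and *Nanos2-/-_Tg+* replicate 2 was the highest. *Nanos2-/-* was lower than *Nanos2+/-* by -0.20 ± 0.20 (log2 difference ± SE, n = 2 arrays per genotype) and *Nanos2-/-_Tg+* higher than *Nanos2-/-* by 0.28 ± 0.20, neither of which passed the test (limma, adjusted *p* = 0.827 and 1). A dimmer *Cdh5* probe read 8.26 and 8.21 in *Nanos2+/-*, 8.28 and 8.62 in *Nanos2-/-*, and 8.35 and 8.69 in *Nanos2-/-_Tg+*. On this probe both *Nanos2-/-* arrays stood above both *Nanos2+/-* arrays, with a difference of 0.22 ± 0.21, so the 2 probes of *Cdh5* went opposite ways. RNA from fewer endothelial cells and less RNA per endothelial cell cannot be told apart in such whole-gonad values.

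*Pecam1*, which encodes the adhesion molecule CD31 of endothelial cells, showed the largest differences from *Nanos2+/-* among the 10 genes. Its signal was 8.29 and 8.37 in *Nanos2+/-*, 8.85 and 9.12 in *Nanos2-/-*, and 8.56 and 9.17 in *Nanos2-/-_Tg+*. All 4 arrays without a working *Nanos2* allele lay above both *Nanos2+/-* arrays, and the *Nanos2-/-* and *Nanos2-/-_Tg+* arrays overlapped. The difference of *Nanos2-/-* from *Nanos2+/-* was 0.66 ± 0.24, with a 95% interval of 0.09 to 1.22, and that of *Nanos2-/-_Tg+* from *Nanos2+/-* was 0.54 ± 0.24, with an interval of -0.03 to 1.11. The unadjusted *p* in limma was 0.0286 and 0.0595, and neither value passed the adjustment over all tested probes (limma, adjusted *p* = 0.474 and 0.454). Without *Nanos2-/-_Tg+* replicate 2 the difference of *Nanos2-/-_Tg+* from *Nanos2+/-* was 0.24, and without replicate 1 it was 0.84. Under the alternatives tried, the difference of *Nanos2-/-* from *Nanos2+/-* ran from 0.52 to 1.09 and its adjusted *p* from 0.2 to 1. Leaving out each replicate in turn gave 0.52 to 0.79 for this difference. Normexp background correction, 1 of the alternatives, moved the median of all tested probes itself to 0.56. *Nanos2-/-_Tg+* and *Nanos2-/-* differed by -0.12 ± 0.24.

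The arrays print the *Pecam1* probe 10 times each, which gives the technical precision of its value. The SD between these spots was 0.04 to 0.10 on the log2 scale. On the *Nanos2+/-* arrays the highest *Pecam1* spots read 8.39 and 8.48, under the lowest spots of *Nanos2-/-*, at 8.78 and 9.04. The lowest spot of *Nanos2-/-_Tg+* replicate 1 read 8.47, between the highest spots of the *Nanos2+/-* arrays. Spots of 1 array share an RNA sample and are no replicates of a genotype. The probe of *Kdr*, also printed 10 times, had an SD between spots of 0.05 to 0.07.

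**Figure D1:**
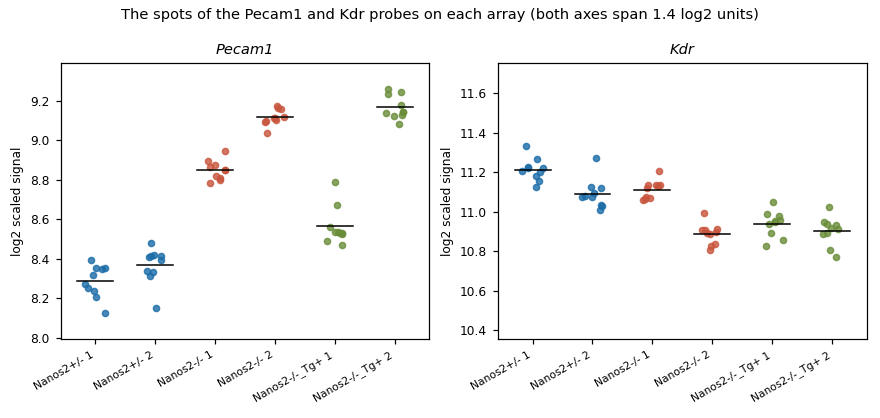
Log2 scaled signal (vertical axes, the same span in both panels) of the 10 spots of the *Pecam1* probe and the 10 spots of the *Kdr* probe on each of the 6 arrays, with a line at the mean of the spots. For *Pecam1* the spots of *Nanos2+/-* reach up to 8.48, while those of both *Nanos2-/-* arrays start at 8.78, and for *Kdr* the spots of *Nanos2+/-* replicate 2 overlap those of *Nanos2-/-* replicate 1.

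PECAM1 is also carried by fetal germ cells and by leukocytes, so the markers of both were read beside it. The 12 germ cell markers were well above background on all 6 arrays, and their summed scaled signal was 164500 and 275400 in *Nanos2+/-*, 226400 and 257800 in *Nanos2-/-*, and 251000 and 261600 in *Nanos2-/-_Tg+*. *Nanos2+/-* replicate 1 was the lowest in that sum and replicate 2 the highest, and the brightest markers in it were *Dppa5a* and *Dppa3*. The median difference over the list was -0.05 for *Nanos2-/-* and 0.13 for *Nanos2-/-_Tg+* against *Nanos2+/-*. Of the 12 markers, 1 was higher without overlap in *Nanos2-/-* than in *Nanos2+/-* and 1 in *Nanos2-/-_Tg+* than in *Nanos2+/-*, and 3 and 2 were lower. Of all tested probes 36 and 38.9% did not overlap in these comparisons, 21.7 and 20.3% in the lower direction. Those lower were *Dnd1* and *Tdrd1* in both genotypes and *Mael* in *Nanos2-/-*. *Dnd1* read 13.54 and 13.76 in *Nanos2+/-*, 12.75 and 12.92 in *Nanos2-/-*, and 12.88 and 12.79 in *Nanos2-/-_Tg+*. The marker higher in both genotypes, as *Pecam1* was, was *Sall4*, a transcription factor of germ cells. It read 10.47 and 10.18 in *Nanos2+/-*, 10.51 and 10.63 in *Nanos2-/-*, and 10.99 and 10.88 in *Nanos2-/-_Tg+*. A dimmer *Sall4* probe overlapped between all 3 genotypes. Of 11 leukocyte and macrophage markers with a probe, 10 were well above background on all 6 arrays and *Itgam* on none. Their sum was 2958 and 3411 in *Nanos2+/-*, 2738 and 3039 in *Nanos2-/-*, and 2941 and 2950 in *Nanos2-/-_Tg+*, and *Aif1* and *Fcer1g* were the brightest. The part of either cell type in the *Pecam1* values was not tested.

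*Emcn* encodes endomucin, a sialomucin of the endothelial surface that is richest in capillaries and veins. Its signal was 12.26 and 12.98 in *Nanos2+/-*, 12.37 and 12.35 in *Nanos2-/-*, and 12.56 and 12.51 in *Nanos2-/-_Tg+*. *Nanos2+/-* replicates 1 and 2 were the lowest and the highest of the 6 arrays, so *Nanos2+/-* overlapped both other genotypes. The difference of *Nanos2-/-* from *Nanos2+/-* was -0.26 ± 0.25 and that of *Nanos2-/-_Tg+* from *Nanos2-/-* 0.18 ± 0.25, and the *Nanos2+/-* pair differed by 0.71, more than either.

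**Figure D2:**
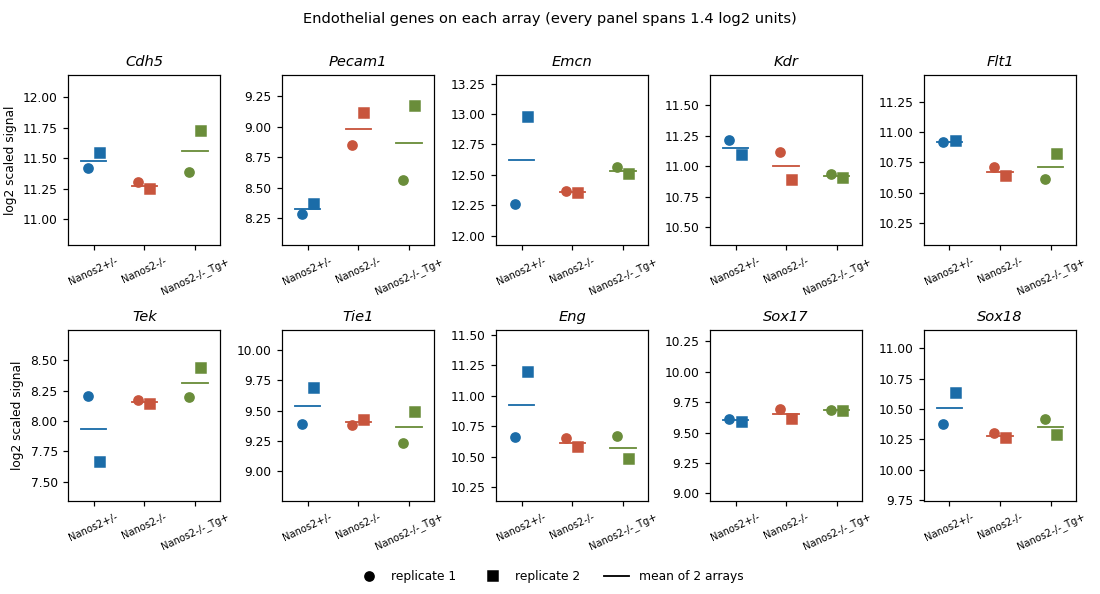
Log2 scaled signal (vertical axes, each with the same span) of the 10 endothelial genes on the 6 arrays, by genotype, with a circle for replicate 1, a square for replicate 2 and a line at the mean of the 2 arrays. *Pecam1* is lower on both *Nanos2+/-* arrays than on the other 4, while the *Nanos2+/-* arrays of *Emcn*, *Eng* and *Tek* differ from each other by 0.71, 0.54 and 0.54.

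*Kdr* encodes VEGFR2, the main signalling receptor for VEGF-A. Its signal was 11.21 and 11.09 in *Nanos2+/-*, 11.11 and 10.89 in *Nanos2-/-*, and 10.94 and 10.90 in *Nanos2-/-_Tg+*. Both *Nanos2-/-_Tg+* arrays lay under both *Nanos2+/-* arrays, and *Nanos2-/-* overlapped each of them. The differences from *Nanos2+/-* were -0.15 ± 0.19 in *Nanos2-/-* and -0.23 ± 0.19 in *Nanos2-/-_Tg+* (limma, adjusted *p* = 0.864 and 0.71).

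*Flt1* encodes VEGFR1, which binds VEGF-A tightly and limits its action on VEGFR2. Its signal was 10.92 and 10.92 in *Nanos2+/-*, 10.71 and 10.64 in *Nanos2-/-*, and 10.62 and 10.82 in *Nanos2-/-_Tg+*. The *Nanos2+/-* arrays were above the other 4, and the differences from *Nanos2+/-* were -0.25 ± 0.18 in *Nanos2-/-* and -0.20 ± 0.18 in *Nanos2-/-_Tg+*. A second, dimmer *Flt1* probe went the same way, with -0.11 ± 0.18 for *Nanos2-/-* and for *Nanos2-/-_Tg+*, and its arrays did not overlap with *Nanos2+/-* either. No *Flt1* difference passed the test, and the lowest adjusted *p* in limma for the brighter probe was 0.742.

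*Tek* and *Tie1* encode the angiopoietin receptor TIE2 and its partner TIE1. *Tek* read 8.20 and 7.66 in *Nanos2+/-*, 8.18 and 8.14 in *Nanos2-/-*, and 8.19 and 8.43 in *Nanos2-/-_Tg+*. *Nanos2+/-* replicate 2 stood under the other 5 arrays, which lay within 8.14 to 8.43. The difference from *Nanos2+/-* was 0.23 ± 0.23 in *Nanos2-/-* and 0.38 ± 0.23 in *Nanos2-/-_Tg+*, and without *Nanos2+/-* replicate 2 the first became -0.04. *Tie1* read 9.39 and 9.69 in *Nanos2+/-*, 9.38 and 9.42 in *Nanos2-/-*, and 9.23 and 9.49 in *Nanos2-/-_Tg+*, and the 3 genotypes overlapped. Its differences from *Nanos2+/-* were -0.14 ± 0.20 and -0.18 ± 0.20. On the *Nanos2+/-* arrays *Tek* was lower in replicate 2 and *Tie1* higher, so the receptors of this pair did not vary together there.

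*Eng* encodes endoglin. Its signal was 10.66 and 11.20 in *Nanos2+/-*, 10.65 and 10.58 in *Nanos2-/-*, and 10.67 and 10.48 in *Nanos2-/-_Tg+*. *Nanos2+/-* replicate 2 stood above the other 5 arrays, which lay within 10.48 to 10.67, and *Nanos2+/-* replicate 1 was level with *Nanos2-/-* replicate 1. The differences from *Nanos2+/-* were -0.31 ± 0.23 in *Nanos2-/-* and -0.35 ± 0.23 in *Nanos2-/-_Tg+*, the largest decreases in mean among the 10 genes, and neither passed the test (limma, adjusted *p* = 0.757 and 0.616).

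*Sox17* and *Sox18* belong to the SoxF family, *Sox17* being known from arteries and *Sox18* from vessel and lymphatic development. On the brightest probe of each gene *Sox17* was the steadiest of the 10. It read 9.61 and 9.59 in *Nanos2+/-*, 9.70 and 9.61 in *Nanos2-/-*, and 9.69 and 9.67 in *Nanos2-/-_Tg+*. Its differences from *Nanos2+/-* were 0.05 ± 0.17 and 0.08 ± 0.17, the 95% interval of the first running from -0.35 to 0.46. A second *Sox17* probe, with a range of 0.33 over the arrays, gave 0.12 ± 0.18 and 0.21 ± 0.18. On that probe the arrays did not overlap between any of the genotypes. The third was not well above background on any array and was not tested. *Sox18* read 10.38 and 10.63 in *Nanos2+/-*, 10.30 and 10.26 in *Nanos2-/-*, and 10.41 and 10.29 in *Nanos2-/-_Tg+*. Both *Nanos2-/-* arrays lay under both *Nanos2+/-* arrays, with a difference of -0.22 ± 0.19, and *Nanos2-/-_Tg+* overlapped *Nanos2+/-*. The SoxF genes thus had opposite signs against *Nanos2+/-*, and the intervals of both included 0.

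Over the 10 genes, 1 probe each, *Nanos2-/-* was lower than *Nanos2+/-* in the mean for 7 and higher for 3, *Nanos2-/-_Tg+* was lower than *Nanos2+/-* for 6, and *Nanos2-/-_Tg+* was higher than *Nanos2-/-* for 6. The median difference was -0.18 for *Nanos2-/-* against *Nanos2+/-*, beside -0.04 over all tested probes, -0.12 for *Nanos2-/-_Tg+* against *Nanos2+/-*, beside -0.01, and 0.04 for *Nanos2-/-_Tg+* against *Nanos2-/-*, beside 0.03. The first 2 comparisons share the *Nanos2+/-* arrays. The members called were 0 of 10 for *Nanos2-/-* against *Nanos2+/-*, where 0.0674% of all tested probes were called, 0 of 10 for *Nanos2-/-_Tg+* against *Nanos2+/-*, beside 0.105%, and 0 of 10 for *Nanos2-/-_Tg+* against *Nanos2-/-*, beside 0.0187%. At an unadjusted *p* below 0.05 in limma the counts were 1 (*Pecam1*), 0 and 0, beside 9.06, 11.5 and 2.74% of all tested probes. These percentages are limma shares and give no background for the test that follows. Its own share over all tested probes is not given, so whether its counts exceed that share cannot be told. The methods' t-test counted 2, 1 and 1 at that threshold, 0 with the 2-fold limit and 0 after Benjamini-Hochberg.

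Arrays of *Nanos2-/-* and *Nanos2+/-* did not overlap for 5 of the 10 genes, beside 36% of all tested probes, namely *Pecam1*, which was higher in *Nanos2-/-*, and *Cdh5*, *Flt1*, *Eng* and *Sox18*, which were lower. In the lower direction alone this was 4 of 10 beside 21.7%. Between *Nanos2-/-_Tg+* and *Nanos2+/-* 4 of 10 did not overlap, beside 38.9%, with *Pecam1* and *Sox17* higher and *Kdr* and *Flt1* lower, so that 2 of 10 were lower beside 20.3%. Between *Nanos2-/-_Tg+* and *Nanos2-/-* *Cdh5*, *Emcn* and *Tek* did not overlap, 3 of 10 beside 31.4%, all higher in *Nanos2-/-_Tg+*. The counts of the 3 comparisons were thus within 2 genes of what the share of all probes would give for 10 genes.

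**Figure D3:**
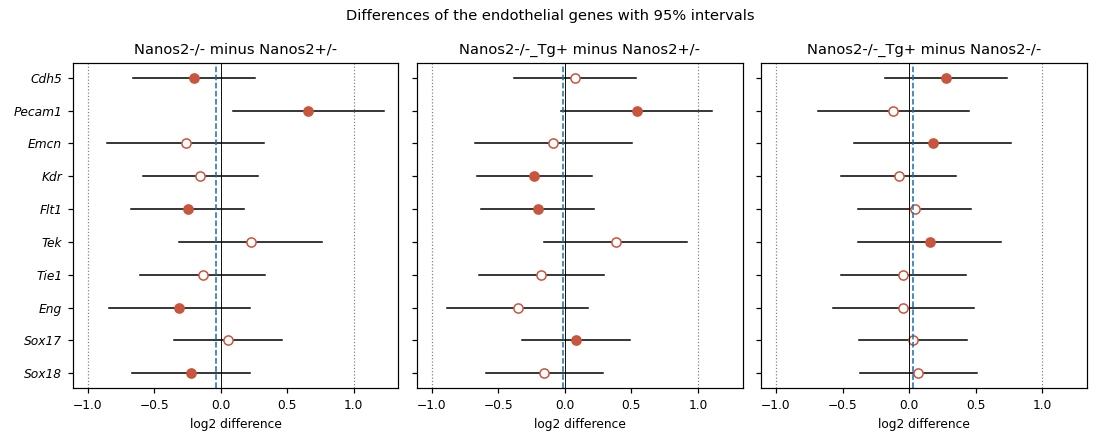
Log2 difference between genotypes (horizontal axes) of the 10 endothelial genes in the 3 comparisons, with bars for the 95% interval from limma, filled points where the arrays of the genotypes did not overlap, a dashed line at the median of all tested probes and dotted lines at 2-fold. Only the interval of *Pecam1* in *Nanos2-/-* against *Nanos2+/-*, 0.09 to 1.22, leaves out 0, and the intervals of 10 genes reach from -0.85 to 1.22 in that comparison.

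The precision set what could be seen. The SE of a difference was 0.17 to 0.25 over the 10 genes and the median 95% interval reached 0.46 to either side, with 2 arrays per genotype. These intervals are not adjusted over all tested probes, and a call also needed a 2-fold difference. A difference beyond 0.46 could thus stay uncalled, as the 0.66 of *Pecam1* did in *Nanos2-/-* against *Nanos2+/-*. Of the 9 genes other than *Pecam1*, none had an interval from *Nanos2-/-* against *Nanos2+/-* that reached 1, the 2-fold limit, on either side.

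The spread between replicates differed among the genotypes. The median absolute difference between the replicates over the 10 genes was 0.19 in *Nanos2+/-*, 0.06 in *Nanos2-/-* and 0.19 in *Nanos2-/-_Tg+*. *Nanos2+/-* replicate 2 was the highest of the 6 arrays for 5 of the 10 genes and the lowest for 2. Within *Nanos2+/-* the 10 genes ran from -0.54 (*Tek*) to 0.71 (*Emcn*) for replicate 2 minus replicate 1, with a median of 0.10, while all tested probes had a median of 0.23. Within *Nanos2-/-* they ran from -0.23 (*Kdr*) to 0.27 (*Pecam1*), and within *Nanos2-/-_Tg+* from -0.18 (*Eng*) to 0.60 (*Pecam1*). Without *Nanos2+/-* replicate 2 the median difference of *Nanos2-/-* from *Nanos2+/-* became -0.04, while that of all tested probes became 0.07. With normexp background correction the median of all tested probes in *Nanos2-/-* against *Nanos2+/-* moved to 0.56 and that of the 10 genes to 0.68, so that the direction of the members relative to all probes turned from -0.14 to 0.12.

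Further genes of the vessel wall were read from lists of their markers and signals. Of 26 other endothelial genes 25 had a probe and were tested, and 24 were well above background on all 6 arrays, the exception being *Erg*. A gene is given by its brightest probe here and in the lists that follow. None was called in any comparison, while 3, 2 and 0 had an unadjusted *p* below 0.05 in limma for *Nanos2-/-* against *Nanos2+/-*, *Nanos2-/-_Tg+* against *Nanos2+/-* and *Nanos2-/-_Tg+* against *Nanos2-/-*, beside 9.06, 11.5 and 2.74% of all tested probes. The mean was lower in *Nanos2-/-* than in *Nanos2+/-* for 23 of the 25, with a median of -0.18, and 14 of the 25 did not overlap in that direction, beside 21.7% of all tested probes. For *Nanos2-/-_Tg+* against *Nanos2+/-* it was lower for 19, with a median of -0.17, and 9 did not overlap, beside 20.3%. For *Nanos2-/-_Tg+* against *Nanos2-/-* it was higher for 18, with a median of 0.08. Without *Nanos2+/-* replicate 2, 15 and 12 of the 25 were lower, when the all-probe medians themselves stood at 0.07 and 0.10. With normexp 1 and 0 were lower, when the all-probe medians stood at 0.56 and 0.52. Below the all-probe median lay 23 and 18 of the 25 in the main setting. Without that replicate these were 18 and 17, and with normexp 10 and 6.

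*Plvap* encodes a protein of the diaphragms that span endothelial fenestrae. Its signal was 11.20 and 11.39 in *Nanos2+/-*, 10.77 and 10.69 in *Nanos2-/-*, and 10.73 and 10.69 in *Nanos2-/-_Tg+*. The 4 arrays without a working *Nanos2* allele lay close together and under both *Nanos2+/-* arrays, by -0.57 ± 0.18 and -0.59 ± 0.18 in the means (limma, adjusted *p* = 0.401 and 0.268). *Ptprb*, the gene of the endothelial phosphatase VE-PTP, which acts on TEK and on VE-cadherin, had the same order. It read 9.21 and 9.08 in *Nanos2+/-*, 8.54 and 8.53 in *Nanos2-/-*, and 8.36 and 8.43 in *Nanos2-/-_Tg+*, with differences of -0.61 ± 0.18 and -0.75 ± 0.18. The adjusted *p* in limma was 0.348 and 0.181, the second being the lowest of the 71 genes tested in the 6 lists.

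*Vwf* encodes von Willebrand factor, the clotting protein stored in endothelial granules. It read 12.89 and 11.91 in *Nanos2+/-*, 11.70 and 11.43 in *Nanos2-/-*, and 12.23 and 11.82 in *Nanos2-/-_Tg+*. *Nanos2-/-* was lower than *Nanos2+/-* by -0.83 ± 0.33 (limma, adjusted *p* = 0.508), the widest of the 71 genes of the 6 vascular lists in that comparison, and the *Nanos2+/-* arrays differed from each other by more than that. Without *Nanos2+/-* replicate 1 the difference was -0.34, and without replicate 2 it was -1.32. A dimmer *Vwf* probe gave -0.89 ± 0.33. *Tal1* and *Rasip1* were lower by -0.39 ± 0.17 and -0.39 ± 0.18 in *Nanos2-/-*, and *Lmo2* was higher by 0.50 ± 0.24, none past the test. *Clec14a*, a C-type lectin of endothelial cells, ran the other way in *Nanos2-/-_Tg+*, at 7.49 and 7.67 in *Nanos2+/-*, 7.64 and 7.79 in *Nanos2-/-*, and 8.01 and 7.98 in *Nanos2-/-_Tg+*. The highest difference of the list was that of the dim *Erg*, 1.09 in *Nanos2-/-_Tg+* against *Nanos2+/-*. It rested on 1 array, *Nanos2-/-_Tg+* replicate 2 at 6.69, beside 4.10 in replicate 1.

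**Figure D4:**
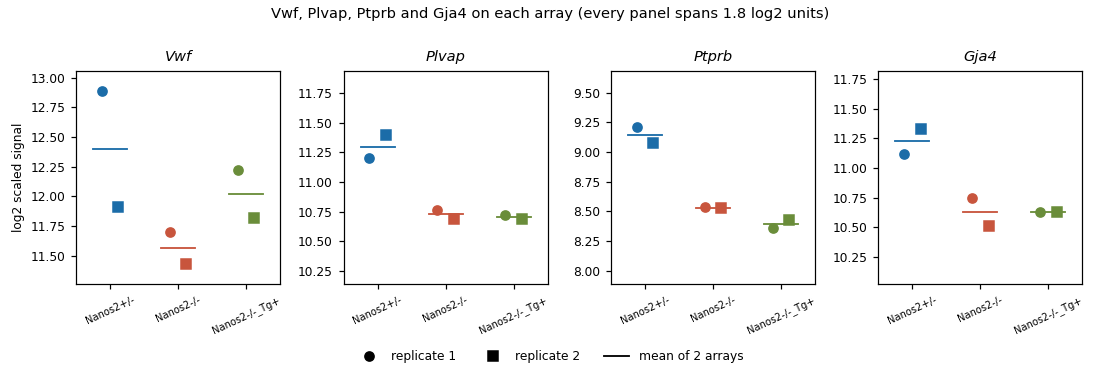
Log2 scaled signal (vertical axes, each with the same span) of *Vwf*, *Plvap*, *Ptprb* and *Gja4* on the 6 arrays by genotype, with a circle for replicate 1, a square for replicate 2 and a line at the mean. *Plvap*, *Ptprb* and *Gja4* are lower on all 4 arrays of *Nanos2-/-* and *Nanos2-/-_Tg+* than on both *Nanos2+/-* arrays, and the *Nanos2+/-* arrays of *Vwf* stand at 12.89 and 11.91.

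Among 7 arterial genes, *Gja4*, which encodes the gap junction protein connexin 37, read 11.12 and 11.33 in *Nanos2+/-*, 10.74 and 10.51 in *Nanos2-/-*, and 10.63 and 10.63 in *Nanos2-/-_Tg+*. Its 4 arrays without a working allele lay under both *Nanos2+/-* arrays, by -0.60 ± 0.19 and -0.59 ± 0.19 (limma, adjusted *p* = 0.403 and 0.286). *Unc5b*, a netrin receptor of arteries, read 10.22 and 10.18 in *Nanos2+/-*, 10.04 and 9.25 in *Nanos2-/-*, and 9.74 and 9.90 in *Nanos2-/-_Tg+*, which differed from *Nanos2+/-* by -0.55 ± 0.27 and -0.38 ± 0.27. The first value was -0.16 without *Nanos2-/-* replicate 2 and -0.95 without *Nanos2-/-* replicate 1. *Hey2*, a Notch target, was higher in *Nanos2-/-_Tg+* than in *Nanos2+/-* by 0.27 ± 0.19. The median over the 7 was -0.12 for *Nanos2-/-* and 0.02 for *Nanos2-/-_Tg+* against *Nanos2+/-*, so the arterial genes had no common direction. With normexp background correction the differences of *Nanos2-/-* from *Nanos2+/-* became 0.35 for *Plvap*, 0.15 for *Ptprb* and 0.42 for *Gja4*, which lay under the all-probe median of 0.56 in that setting.

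The vascular ligands, of which some act on the members, showed small differences. Of 15 ligand genes 12 were tested, and *Angpt1*, which encodes the activating ligand of TEK, was not well above background on any array, nor were *Gdf2* and *Bmp10*, which encode ligands of the endoglin receptor complex. *Vegfa* read 11.27 and 11.02 in *Nanos2+/-*, 11.50 and 11.38 in *Nanos2-/-*, and 11.35 and 11.10 in *Nanos2-/-_Tg+*. Both *Nanos2-/-* arrays stood above both *Nanos2+/-* and both *Nanos2-/-_Tg+* arrays, with a difference of 0.29 ± 0.20 from *Nanos2+/-*, and *Nanos2-/-_Tg+* differed from *Nanos2-/-* by -0.22 ± 0.20. For *Nanos2-/-* against *Nanos2+/-*, the other *Vegfa* probes gave 0.29 ± 0.21 and -0.11 ± 0.19, so the probes of *Vegfa* disagreed. *Vegfb* was lower in *Nanos2-/-* than in *Nanos2+/-* by -0.35 ± 0.19. *Dll4*, a Notch ligand of sprouting endothelium, was lower in *Nanos2-/-* by -0.32 ± 0.20. *Edn1* and *Jag1* were higher in *Nanos2-/-_Tg+* than in *Nanos2+/-* by 0.28 ± 0.19 and 0.24 ± 0.18. On the brightest probe none of the 12 had an unadjusted *p* below 0.05 in limma in any comparison, and the list medians against *Nanos2+/-* were -0.07 and -0.04.

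Of 12 further receptor genes 11 were tested, and 8 were lower in *Nanos2-/-* than in *Nanos2+/-*, with a median of -0.17. The count fell to 6 without *Nanos2+/-* replicate 2, where the median of all tested probes was 0.07. It fell to 3 with normexp, where the list median was 0.40 beside 0.56 over all tested probes. Below the all-probe median lay 8 of the 11 in the main setting, 8 without that replicate and 7 with normexp. *Acvrl1* encodes ALK1, the receptor with which endoglin works, and read 8.99 and 9.46 in *Nanos2+/-*, 8.84 and 8.81 in *Nanos2-/-*, and 8.95 and 8.62 in *Nanos2-/-_Tg+*. Its differences from *Nanos2+/-* were -0.40 ± 0.23 and -0.44 ± 0.23, on the same side as those of *Eng*, with *Nanos2+/-* replicate 2 again the highest array. Without that array they were -0.17 and -0.21. *Notch1* and *S1pr1* were lower in *Nanos2-/-* by -0.33 ± 0.18 and -0.31 ± 0.19. The probes of *Ednrb* disagreed, the brighter being higher in *Nanos2-/-_Tg+* than in *Nanos2+/-* by 0.37 ± 0.20 and the dimmer lower by -0.67 ± 0.22 (limma, unadjusted *p* = 0.0165, adjusted *p* = 0.293) and in *Nanos2-/-* lower than in *Nanos2+/-* by -0.61 ± 0.22 (unadjusted *p* = 0.0235). *Calcrl* was higher in *Nanos2-/-_Tg+* than in *Nanos2-/-* by 0.27 ± 0.20. On the brightest probe of each gene none of the 11 passed an unadjusted *p* of 0.05 in limma.

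Of the venous and lymphatic genes 5 of 6 were tested, and *Prox1*, the defining transcription factor of lymphatic endothelium, was not well above background on any array. *Pdpn* was higher in *Nanos2-/-_Tg+* than in *Nanos2+/-* by 0.30 ± 0.19, and by 0.50 ± 0.20 on its dimmer probe (unadjusted *p* = 0.0405), and the list medians against *Nanos2+/-* were -0.02 and 0.02. Pericytes and smooth muscle cells wrap the vessels, and all 11 of their genes were tested. Their mean was lower in *Nanos2-/-* than in *Nanos2+/-* for 10 of 11, with a median of -0.15, and lower in *Nanos2-/-_Tg+* than in *Nanos2+/-* for 8. These counts were 6 and 5 without *Nanos2+/-* replicate 2, beside all-probe medians of 0.07 and 0.10. With normexp they were 0 and 0, beside all-probe medians of 0.56 and 0.52. Below the all-probe median lay 10 and 8 in the main setting, 8 and 6 without that replicate, and 4 and 4 with normexp. *Kcnj8* and *Cspg4* were lower in *Nanos2-/-* by -0.38 ± 0.21 and -0.32 ± 0.18, and *Acta2* read 14.85 and 15.12 in *Nanos2+/-*, 14.87 and 15.00 in *Nanos2-/-*, and 15.08 and 15.06 in *Nanos2-/-_Tg+*. Over the 6 lists the *Nanos2-/-* mean was below *Nanos2+/-* for 55 of 71 genes, where the median of all tested probes was itself -0.04. Fewer were lower in each of the 6 lists without *Nanos2+/-* replicate 2, and likewise with normexp. The all-probe median itself moved to 0.07 and 0.56 in these settings. Below the all-probe median of each setting, receptors stayed at 8 without that array, arterial genes at 4, and venous and lymphatic genes at 2. Other endothelial genes went from 23 to 18, ligands from 7 to 6, and pericyte and smooth muscle genes from 10 to 8. With normexp the counts in this order were 7, 4, 2, 10, 4 and 4. In limma 0 of the 71 genes were called in any comparison. An unadjusted *p* below 0.05 was reached by 4, 3 and 0 of them, beside 9.06, 11.5 and 2.74% of all tested probes. Among their further probes, *Vwf* and *Ednrb* also passed that threshold in *Nanos2-/-* against *Nanos2+/-*, and *Ednrb*, *Efnb2* (-0.76 ± 0.31) and *Pdpn* in *Nanos2-/-_Tg+* against *Nanos2+/-*, and none was called.

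**Figure D5:**
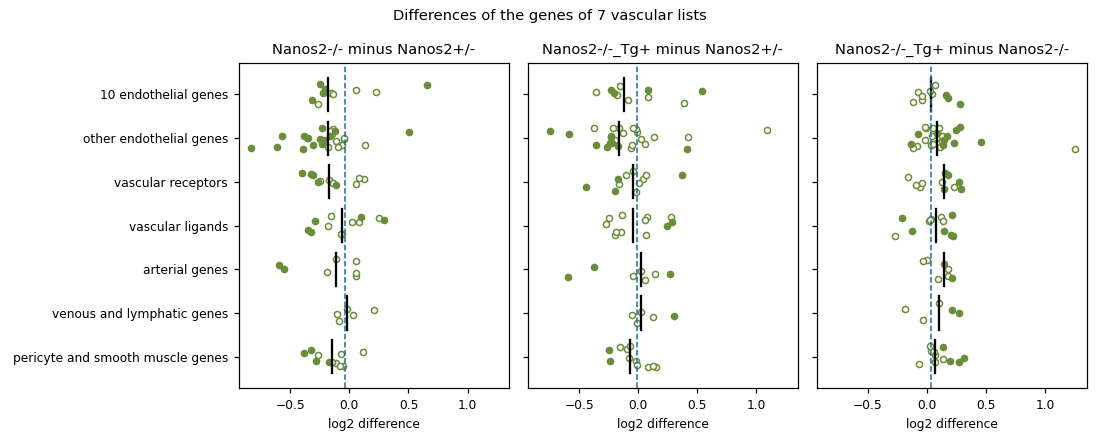
Log2 difference between genotypes (horizontal axes) of each tested gene of the 10 endothelial genes and the 6 other vascular lists, in the 3 comparisons, with filled points where the arrays did not overlap, a black bar at the list's median and a dashed line at the median of all tested probes. The medians of the 10 genes and of the other endothelial genes both stand at -0.18 for *Nanos2-/-* against *Nanos2+/-*, beside -0.04 over all probes.

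Cells that share the vessels or the gonad were read beside these lists. Among 11 red cell genes with a probe, 10 were well above background on all 6 arrays, and their summed signal, carried by *Hbb-bt* and *Hba-a1*, was 363300 and 368200 in *Nanos2+/-*, 336300 and 297700 in *Nanos2-/-*, and 445100 and 452300 in *Nanos2-/-_Tg+*. The *Nanos2-/-_Tg+* sum was above all other arrays, and 4 of the 11 genes had an unadjusted *p* below 0.05 in *Nanos2-/-_Tg+* against *Nanos2-/-*, beside 2.74% of all tested probes, while 0 were called in limma. *Alas2*, the heme synthesis enzyme of red cells, was higher in *Nanos2-/-_Tg+* than in *Nanos2-/-* by 0.60 ± 0.20 (limma, unadjusted *p* = 0.0194). The summed signal of the 10 endothelial genes was 16970 and 21230 in *Nanos2+/-*, 16820 and 16190 in *Nanos2-/-*, and 17350 and 18050 in *Nanos2-/-_Tg+*, so that it too was lowest in *Nanos2-/-*. The Sertoli cell sum was 179400 and 246700 in *Nanos2+/-*, 187700 and 229900 in *Nanos2-/-*, and 211600 and 230300 in *Nanos2-/-_Tg+*, with all 10 markers well above background on all 6 arrays. The Leydig cell sum, over 5 markers, was 91260 and 105100 in *Nanos2+/-*, 94510 and 88680 in *Nanos2-/-*, and 96380 and 80010 in *Nanos2-/-_Tg+*. Of 10 mesonephros markers 6 were well above background on all 6 arrays and *Pax2* on none, and the sum was 954 and 1772 in *Nanos2+/-*, 1553 and 1304 in *Nanos2-/-*, and 1024 and 1508 in *Nanos2-/-_Tg+*. In every sum given here *Nanos2+/-* replicate 1 lay below replicate 2. The part of these cell types in the endothelial values was not tested.

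The mean profile of the 10 genes over the 6 arrays, each gene centred on its own mean, was set against the 17411 other named probes well above background on all 6 arrays. *Ntf3*, *Lima1*, *Dpysl2*, *Ubn2* and *Kansl3* had the smallest root mean square difference from it, between 0.01 and 0.03 on the log2 scale, beside a median of 0.18 over all candidates. The members themselves lay between 0.08 (*Sox17*) and 0.35 (*Pecam1*). The nearest genes lay closer than any member, but they were picked from 17411 probes for being near, so this says nothing about the members. The profile itself ran only from -0.05 to 0.09 over the arrays, and a likeness over 6 arrays is a description.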

How the data were processed

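Total RNA (0.20 µg per array) of E14.5 male gonads had been labelled with Cy3 and hybridized to 6 one-colour arrays. The deposited intensity of each spot is the processed signal after background subtraction by the authors' Agilent Feature Extraction (version 9.5 in the submitters' notes, 9.5.3.1 per the file headers). The methods state that the authors set values under 5 to 5 and scaled each array to the 50th percentile. The series' own value table, also deposited, carries these intensities and served as an alternative. Its values differed from those of the scanner files by at most 0.497%.

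Here controls (1639 of 45018 spots) and 54 to 82 outlier spots per array were left out, each array was scaled to a common 50th percentile (factors 0.878 to 1.28), values were floored at 5 after scaling, put on log2 and averaged per probe. Tested were probes that 1 genotype or more had well above background on its 2 arrays, with a value on all 6 arrays, using limma 3.58.1 (lmFit and eBayes, R 4.3.3, version 1.17.8 of data.table; prior degrees of freedom 4.55), adjusted by Benjamini-Hochberg over all 26698. The fit was tested on simulated data. A gene with several probes is represented by the brightest. Accessions were named through RefSeq (23374 probes matched). Intervals are 95%, and the number of arrays limits the precision. Summaries and plots used matplotlib 3.10.9 and pandas 2.3.3 under Python 3.11.15.

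The members, gene lists and motifs were chosen from general knowledge with earlier results of these data known. Named from each vascular list were the 3 genes with the largest difference per comparison among those well above background on all arrays that did not overlap, in part. *Tal1*, *Rasip1*, *Lmo2*, *Erg*, *Efnb2*, *Sall4*, *Dnd1*, *Mael*, *Tdrd1*, *Alas2* and *Acta2* were named after their values were seen. Alternatives were other scalings (75th percentile, quantile), normexp (offset 50, on median spot signals), floors, filters on dim probes, outlier spots kept, the value table, a replicate block, the 4 arrays compared, an intensity trend, the methods' t-test, all probes of a gene, and each replicate left out.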

Additional observations from a re-analysis of the deposited data

How the results depend on the processing

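No endothelial gene was called in limma in any comparison under any alternative that was run, while the calls over all tested probes ranged from 0 to 47 for *Nanos2-/-* against *Nanos2+/-*, 0 to 145 for *Nanos2-/-_Tg+* against *Nanos2+/-* and 0 to 29 for *Nanos2-/-_Tg+* against *Nanos2-/-*. The main counts were 18, 28 and 5. The members with an unadjusted *p* below 0.05 ranged from 0 to 3, 0 to 3 and 0 to 1. Their median moved by less than the replicate SD of 0.08 under the alternatives, with these exceptions. With normexp, run on median spot signals, it was 0.68 for *Nanos2-/-* and 0.71 for *Nanos2-/-_Tg+* against *Nanos2+/-*, with all-probe medians of 0.56 and 0.52, and the cause was not tested. Leaving out each replicate in turn gave -0.257 to -0.0448 for *Nanos2-/-* against *Nanos2+/-*, -0.188 to 0.0214 for *Nanos2-/-_Tg+* against *Nanos2+/-* and 0.0114 to 0.114 for *Nanos2-/-_Tg+* against *Nanos2-/-*. The extremes came from leaving out *Nanos2+/-* replicates 1 and 2 in the first, *Nanos2+/-* replicate 2 at the upper end of the second, and *Nanos2-/-_Tg+* replicate 1 at the upper end of the third. Of 630 values of single members, 27 changed sign and 0 changed a call, and of 1800 values of the 30 other vascular genes that the naming rule gave, 81 changed sign and 0 were called.

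The labels do not say that a replicate number is shared between genotypes. Same-numbered arrays deviated together, with correlations of 0.355, 0.313 and 0.259. In a fit blocked on the replicate number the member medians stayed at -0.18, -0.12 and 0.04, the calls over all probes became 18, 145 and 4, and *Pecam1* in *Nanos2-/-* against *Nanos2+/-* had an adjusted *p* of 0.2, within a range of 0.2 to 1 over its alternatives. Slide as a block could not be fitted for the comparisons with *Nanos2+/-*, and the 4 arrays of *Nanos2-/-_Tg+* and *Nanos2-/-* on 1 slide gave a member median of 0.04.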
